A study of Mus musculus with 6 samples.

Results

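The AP-1 subunits and Maf proteins examined here are 10 genes, Fos, Fosb, Fosl1, Fosl2, Jun, Junb, Jund, Maff, Mafk and Maf, chosen by symbol among 35458 gene identifiers, and all 10 had a value in every library. RNA-seq was made from CD8+ T cells of mouse spleen in 3 control libraries (genotype Cd4cre) and 3 knockout (KO) libraries (genotype Cd4creGlut10fl/fl). All 6 libraries thus carried the Cd4cre transgene, in which a Cd4 promoter drives Cre recombinase in developing T cells, and the KO mice also carried floxed alleles of Glut10, the hexose transporter encoded by Slc2a10. The labels give no treatment, no age and no number of mice, and do not tie each library to a mouse of its own, so the spread that the p-values rest on may be technical. Values are FPKM, a fragment count divided by gene length and library depth, so that levels can be compared between genes.

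AP-1 is a family of dimeric transcription factors with a basic DNA-binding region and a leucine zipper. Jun proteins pair with each other or with Fos proteins, whereas Fos proteins need a Jun partner to bind DNA, and the dimers recognise the TPA response element or the related cAMP response element. In T cells AP-1 is induced by antigen receptor and MAP kinase signalling and binds with NFAT at cytokine genes. Maf proteins are related zipper factors: Maff and Mafk are small Mafs without a transactivation domain, which pair with Nfe2, Nfe2l2 or Bach proteins, and Maf is a large Maf with a transactivation domain.

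The promoter windows of 5 members are shown because they belong to the genes on which the comparison turns: Jun, Fosl2 and Mafk lay below the controls in every KO library, and Junb and Fos had the highest mean levels in the controls. They are RefSeq windows of assembly GRCm38.p6, from 250 bases before to 50 bases after an annotated start, 5′ to 3′ on the gene's strand. Capitals mark matches on either strand to the motifs searched, which were the TPA response element TGACTCA, the cAMP response element TGACGTCA, the variant TGACATCA known from the Jun promoter, the TATA box TATAAA, the GC box GGGCGG and the CArG box bound by serum response factor.
Jun (chr4:95052173-95052472, minus strand): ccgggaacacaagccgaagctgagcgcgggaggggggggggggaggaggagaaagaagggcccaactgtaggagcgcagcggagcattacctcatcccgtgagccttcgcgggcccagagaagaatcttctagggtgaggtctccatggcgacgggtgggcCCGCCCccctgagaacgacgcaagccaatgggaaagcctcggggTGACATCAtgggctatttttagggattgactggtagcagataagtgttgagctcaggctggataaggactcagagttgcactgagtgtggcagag
Fosl2 (chr5:32136222-32136521, plus strand): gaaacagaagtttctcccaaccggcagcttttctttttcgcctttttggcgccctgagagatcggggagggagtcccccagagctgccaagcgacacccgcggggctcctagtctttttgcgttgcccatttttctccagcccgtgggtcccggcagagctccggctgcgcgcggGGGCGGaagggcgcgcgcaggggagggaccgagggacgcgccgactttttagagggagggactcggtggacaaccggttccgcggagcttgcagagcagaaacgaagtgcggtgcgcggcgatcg
Mafk (chr5:139791286-139791585, plus strand): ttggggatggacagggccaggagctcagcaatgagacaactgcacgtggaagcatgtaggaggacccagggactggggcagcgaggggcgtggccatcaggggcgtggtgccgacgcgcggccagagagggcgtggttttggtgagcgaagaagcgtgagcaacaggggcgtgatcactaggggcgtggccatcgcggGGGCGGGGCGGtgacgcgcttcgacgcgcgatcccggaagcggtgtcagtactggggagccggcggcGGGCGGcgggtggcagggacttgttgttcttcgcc
Junb (chr8:84978699-84978998, minus strand): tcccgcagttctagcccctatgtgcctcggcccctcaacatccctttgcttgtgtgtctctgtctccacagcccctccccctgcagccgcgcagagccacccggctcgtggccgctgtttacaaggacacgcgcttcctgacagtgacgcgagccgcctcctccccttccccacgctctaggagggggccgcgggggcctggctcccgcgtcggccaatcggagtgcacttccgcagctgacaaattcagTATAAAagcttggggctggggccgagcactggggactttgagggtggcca
Fos (chr12:85473640-85473939, plus strand): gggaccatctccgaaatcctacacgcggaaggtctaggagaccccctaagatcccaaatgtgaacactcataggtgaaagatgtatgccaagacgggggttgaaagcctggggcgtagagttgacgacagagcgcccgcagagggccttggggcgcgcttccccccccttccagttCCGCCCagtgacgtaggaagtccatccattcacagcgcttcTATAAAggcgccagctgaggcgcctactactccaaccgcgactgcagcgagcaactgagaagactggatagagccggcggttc

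Windows matched 8 of the 10 members, with 3 alternative starts for Maff, and none was matched for Fosl1 and Maf. The Jun window held TGACATCA with its first base at position -45, and 1 of the Maff windows held the same letters at -45. TGACATCA was found in 3.62% of all 32851 windows. Another Maff window held the cAMP response element TGACGTCA at -29, a motif in 1.79% of all windows. TATAAA began at -33 in Fos and at position 1, the annotated start, in Junb, and was in 13.6% of all windows. GC boxes were in 7 of the 10 member windows and in 35.7% of all windows, and 2 of the 3 in Mafk shared bases. The letters TGACTCA (5.20% of all windows) and the CArG box (1.63%) were in none of the 10 member windows. Sequence further upstream was not searched, so a gene may hold these motifs outside its window. These matches describe letters in these windows and are not evidence of binding.

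The libraries differed in ways that touch the members. Implied totals were 11840600 to 15036300 fragments in the controls and 14683400 in KO 2, against 3420290 in KO 1 and 3004540 in KO 3. The 11 T cell markers, Cd8a and Cd8b1 included, were above 0 in every library and summed to 2125, 786 and 563 FPKM in controls 1 to 3 against 2141, 3348 and 2351 in KO 1 to 3. The 11 neutrophil markers summed to 343, 16512 and 29097 FPKM in controls 1 to 3 and to 58.1 to 680 in the KO libraries, and all 11 were higher in control 2 and 3 than in control 1. Erythroid markers, 6 of them measured, summed to 6.05, 2206 and 1007 FPKM in controls 1 to 3 and to 2.62 to 33.8 in the KO libraries. All 6 were likewise higher in control 2 and 3 than in control 1. The 15 macrophage and monocyte markers summed to 2076 to 4811 FPKM in the controls and 410 to 2075 in the KO libraries. Lyz2 was the largest part of each of these sums. Of the 15 markers, 4 were lower and 0 higher in every KO library than in every control. Among all 13956 genes tested, 9.44% were lower and 6.7% higher in this way. None of these neutrophil and macrophage markers was at 0 in any library. Slc2a10 itself had 8 implied reads over the 3 controls, 4, 2 and 2, and 0 in each KO library, too few to show its loss at this depth.

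**Figure D1:**
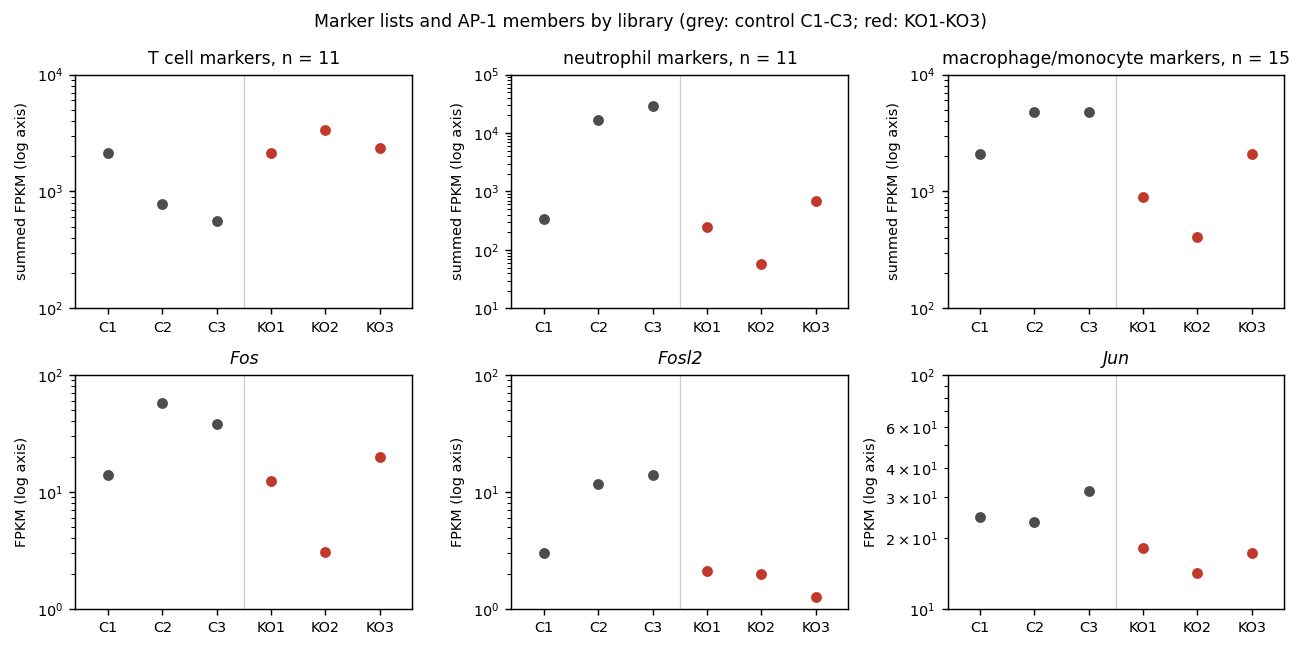
Summed FPKM of T cell, neutrophil and macrophage or monocyte markers (upper row) and FPKM of Fos, Fosl2 and Jun (lower row) in each library, on log axes; C is control and each point is 1 library. Control 2 and 3 stand highest for neutrophil markers, Fos and Fosl2, while Jun spans 23.5 to 31.7 FPKM in the controls and 14.2 to 18.2 in the KO libraries.

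Of the 10 members, 4 were lower in every KO library than in every control, namely Fosl1, Fosl2, Jun and Mafk, and 0 were higher in every KO library. Junb, the most abundant member, overlapped between groups, as did Fos, Fosb, Jund, Maff and Maf. Among all 13956 genes tested, 9.44% were lower without overlap and 6.7% higher without overlap. A filter of at least 1 FPKM in at least 3 libraries kept 9 members and left out Fosb. Of these 9, 6 had lower and 3 higher estimates in the KO cells, with a median log2 difference of -0.51 on the log2(FPKM + 1) scale, beside 0.10 over all tested genes, of which 43.1% had lower and 56.9% higher estimates. All 10 members are protein-coding. Over the 10833 protein-coding genes tested, the median was 0.02, with 5228 lower and 5605 higher estimates. KO 1 and KO 3 had 18934 and 19268 genes at 1 FPKM or more, against 12200 to 13713 in the other libraries. What this did to the shares over all genes was not tested.

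No member passed the test. With limma on log2(FPKM + 1) and Benjamini-Hochberg adjustment over all 13956 genes, 0 genes and 0 members (0% of genes) had an adjusted p below 0.05. At an unadjusted p under 0.05 there were 3 members, Fosl1, Fosl2 and Jun, all lower, where 6.46% of all genes were lower and 5.33% higher. limma-voom on reads implied by the FPKM values also called 0 of 16254 genes and 0 of 10 members, and at an unadjusted p under 0.05 it had 3, Fos, Fosl2 and Jun, where 8.29% of its genes had such a p in either direction. The permutation of 3 against 3 libraries cannot give an exact two-sided p below 0.1 and was not used. In bulk samples such as these, fewer cells of a type and less RNA per cell cannot be told apart.

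**Figure D2:**
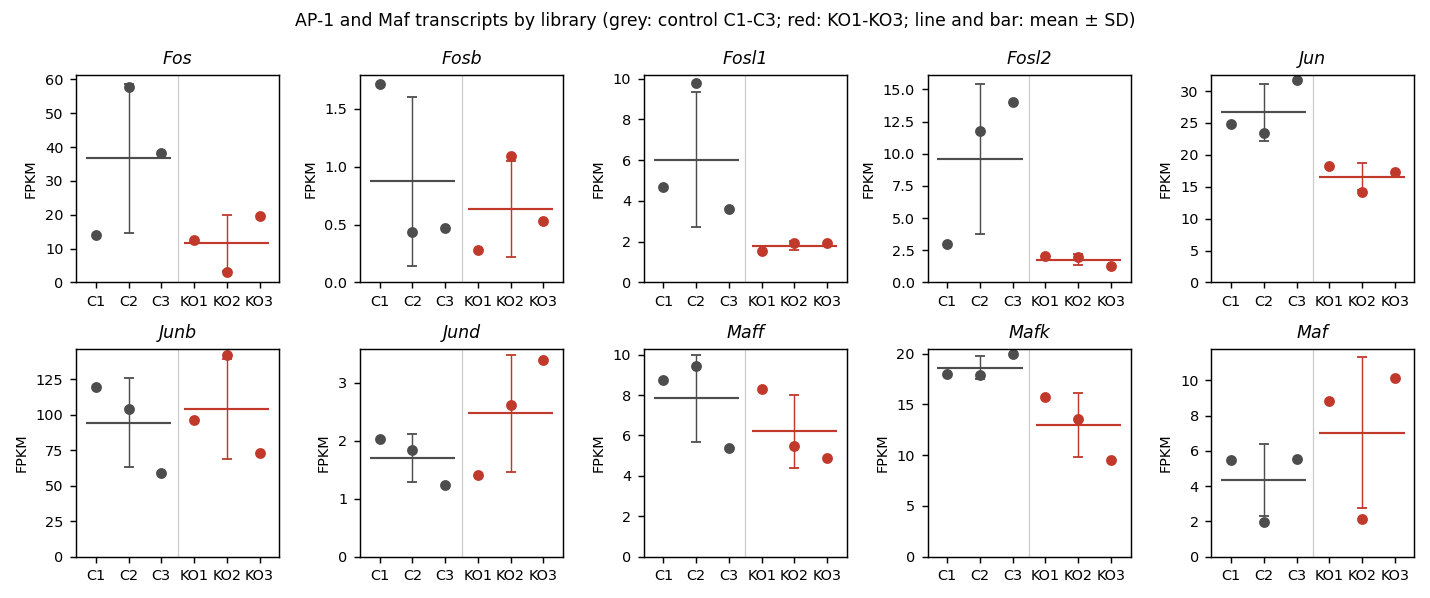
FPKM of the 10 members in each library on linear axes that start at 0; points are libraries (grey control, red KO), lines are group means and bars SD over 3 libraries. Jun, Fosl1, Fosl2 and Mafk show no overlap between groups, and Fos and Fosl2 have their 2 highest values in control 2 and 3.

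Among the Jun proteins, Jun (ENSMUSG00000052684), the prototype of the family and a strong transactivator, measured 24.8, 23.5 and 31.7 FPKM in controls 1 to 3 and 18.2, 14.2 and 17.3 in KO 1 to 3. All 3 KO libraries lay below the lowest control. The means were 26.7 ± 4.42 and 16.6 ± 2.12 FPKM (SD, n = 3 each), so the KO mean was 62.2% of the control mean. The log2 difference was -0.65 (SE 0.22, 95% interval -1.17 to -0.13), with a limma adjusted p of 0.417. The counts behind the extremes nearest to each other were 1126 implied reads in control 2 and 199 in KO 1, whose 95% Poisson intervals, 22.2 to 24.9 and 15.8 to 20.96 FPKM, did not overlap; such intervals cover counting error only. The difference was -0.56 with control 1 as the only control and -0.85 with KO 2 as the only KO library. What part non-T cells had in the Jun difference was not tested.

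Junb (ENSMUSG00000052837), a Jun protein that transactivates less strongly and can oppose Jun, measured 120, 104 and 59.1 FPKM in controls 1 to 3 and 96.6, 142 and 73.3 in KO 1 to 3. The groups overlapped, with the lowest value in control 3 and the highest in KO 2. The means were 94.3 ± 31.5 and 104 ± 35.0 FPKM (SD, n = 3 each), and the log2 difference was 0.15 (SE 0.37) with a 95% interval of -0.73 to 1.03. That interval holds a lower as well as a higher level, and the sign of the estimate turned without control 3 (-0.15), without KO 2 (-0.10) and without control 2 and 3 together (-0.25).

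Jund (ENSMUSG00000071076), the Jun protein known for steady expression in resting cells, was the lowest of the family here, with 2.03, 1.84 and 1.24 FPKM in controls 1 to 3 and 1.40, 2.61 and 3.39 in KO 1 to 3. KO 2 and KO 3 were above all controls and KO 1 was not. Only 8 implied reads stood behind KO 1 and 17 behind KO 3, with 95% Poisson intervals of 0.605 to 2.76 and 1.98 to 5.43 FPKM. The log2 difference was 0.33 (SE 0.34, 95% interval -0.49 to 1.15). It ranged from 0.14 without KO 3 to 0.57 without KO 1, and was 0.04 after quantile normalization.

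Fos (ENSMUSG00000021250), the immediate early partner of Jun, measured 13.9, 57.8 and 38.2 FPKM in controls 1 to 3 and 12.4, 3.04 and 19.7 in KO 1 to 3. Control 2 and 3 were higher than every other library, control 1 lay between KO 1 and KO 3, and KO 2 was the lowest of all. The means were 36.6 ± 22.0 and 11.7 ± 8.34 FPKM (SD, n = 3 each), and the log2 difference was -1.65 (SE 0.75, 95% interval -3.45 to 0.16), with a limma adjusted p of 0.417. Control 2 and 3 were also the libraries with neutrophil markers summing to 16512 and 29097 FPKM, and KO 2 was the library with the lowest sums of neutrophil and macrophage markers, 58.1 and 410 FPKM. Erythroid markers also had their highest sums in control 2 and 3, 2206 and 1007 FPKM. Without control 2 and 3 the log2 difference of Fos was -0.52, and without KO 1 and 3 it was -3.01. The part of non-T cells in the Fos difference was not tested.

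Fosl2 (ENSMUSG00000029135), a Fos protein that lacks the transactivation domain of Fos, measured 2.99, 11.8 and 14.05 FPKM in controls 1 to 3 and 2.08, 1.99 and 1.27 in KO 1 to 3. Control 2 and 3 were again the highest, yet control 1 also lay above all 3 KO libraries. The means were 9.60 ± 5.84 and 1.78 ± 0.444 FPKM (SD, n = 3 each), the KO mean being 18.6% of the control mean. The log2 difference was -1.73 (SE 0.55, 95% interval -3.05 to -0.41), with a limma adjusted p of 0.417. In control 1 and KO 1, the nearest pair, the 95% Poisson intervals of 2.68 to 3.33 and 1.62 to 2.64 FPKM lay close together without overlap. Fosl2 was the single member to pass in any setting, without control 1, where its log2 difference was -2.33 with a limma adjusted p of 0.0352 and 2.6% of all genes passed. With control 1 as the only control the difference was -0.53. The part of non-T cells in this difference was not tested.

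Fosl1 (ENSMUSG00000024912), the other Fos protein without that domain and itself a gene that AP-1 activates, measured 4.70, 9.79 and 3.58 FPKM in controls 1 to 3 and 1.54, 1.92 and 1.95 in KO 1 to 3. The 3 KO libraries were close together and below all controls. The means were 6.02 ± 3.31 and 1.80 ± 0.226 FPKM (SD, n = 3 each), and the log2 difference was -1.23 (SE 0.39, 95% interval -2.17 to -0.29), with a limma adjusted p of 0.417. The difference was -1.03 with control 2 and 3 left out and -1.17 with KO 1 and 3 left out. About 11 reads in KO 1 and 12 in KO 3 stood behind the value, which times the exon length did not come out whole, and the 95% Poisson intervals reached 2.83 and 3.43 FPKM. The latter is within the interval of control 3, 2.96 to 4.34 FPKM. A contribution of non-T cells to the Fosl1 difference was not tested.

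Fosb (ENSMUSG00000003545), an immediate early Fos protein, was the lowest member, with 1.72, 0.437 and 0.469 FPKM in controls 1 to 3 and 0.281, 1.09 and 0.533 in KO 1 to 3. Control 1 and KO 2, the libraries with the lowest neutrophil sums of their groups, held its highest values. KO 3, with a neutrophil sum of 680 FPKM, had more Fosb than KO 1, with 248. The part of non-T cells in the Fosb values was not tested. KO 1 and KO 3 had 6 and 10 implied reads. Fosb was under the filter and was not part of the main test.

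Among the small Mafs, Mafk (ENSMUSG00000018143) measured 17.9, 17.9 and 19.9 FPKM in controls 1 to 3 and 15.7, 13.6 and 9.56 in KO 1 to 3. All KO libraries lay below all controls, and the control values were the least spread of all members relative to their mean. The means were 18.6 ± 1.16 and 12.96 ± 3.14 FPKM (SD, n = 3 each), and the log2 difference was -0.51 (SE 0.24, 95% interval -1.10 to 0.07), with a limma adjusted p of 0.417. The 95% Poisson intervals of the nearest pair, 16.9 to 19.1 FPKM in control 2 and 13.7 to 18.0 in KO 1, overlapped. The difference was -0.47 with control 2 and 3 left out and -0.43 with KO 1 and 3 left out. Maff (ENSMUSG00000042622) measured 8.73, 9.43 and 5.40 FPKM in the controls and 8.28, 5.46 and 4.87 in KO 1 to 3, so the groups overlapped. Its log2 difference was -0.29 (SE 0.32, 95% interval -1.08 to 0.49), and it moved to -0.51 without control 3, -0.49 without KO 1, -0.57 after quantile normalization and -0.16 without control 2 or without KO 3.

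Maf (ENSMUSG00000055435), a factor known in helper T cells and macrophages, measured 5.50, 2.00 and 5.55 FPKM in controls 1 to 3 and 8.83, 2.16 and 10.1 in KO 1 to 3. KO 1 and KO 3 were above all controls and KO 2 was close to the lowest control, so the groups overlapped. The log2 difference was 0.48 (SE 0.60, 95% interval -0.96 to 1.92), and -0.67 without KO 1 and 3. Macrophage and monocyte markers summed to 2076, 4811 and 4797 FPKM in controls 1 to 3 and to 895, 410 and 2075 in KO 1 to 3. Control 2, which had the highest of these sums, had the lowest Maf value, while among the KO libraries the lowest sum and the lowest Maf value were both in KO 2. Lyz2 was the largest part of each sum. It measured 1700, 3932 and 4208 FPKM in controls 1 to 3 and 628, 254 and 1590 in KO 1 to 3. Some other markers of the list differed from the sum. Spic measured 8.80, 8.22 and 5.84 FPKM in controls 1 to 3 and 18.9, 1.03 and 22.0 in KO 1 to 3. C1qb measured 20.6, 15.8 and 10.6 FPKM against 24.7, 0.501 and 82.6. Ly6c2 and Cd14 were instead highest in KO 2 among the KO libraries. Ly6c2 measured 39.5, 266 and 199 FPKM in controls 1 to 3 and 8.43, 53.0 and 14.8 in KO 1 to 3. Cd14 measured 52.1, 191 and 53.6 FPKM against 8.74, 23.6 and 17.8. These markers were picked after their values were seen. Of the 15 markers, 4 were lower and 0 higher in every KO library than in every control, beside 9.44% and 6.7% of all genes. KO 1 and KO 3, where Maf was highest, had the smallest library totals. What share of the Maf value came from which cells was not tested.

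**Figure D3:**
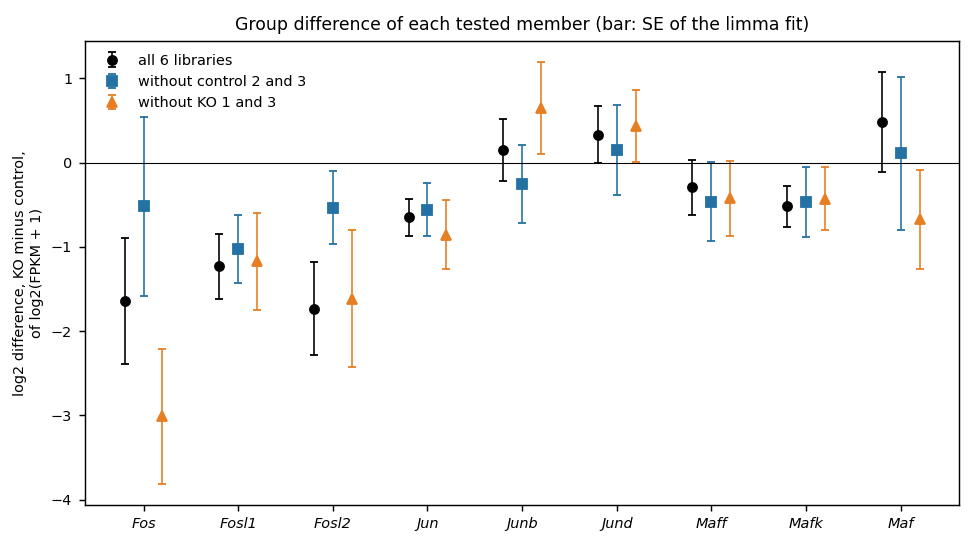
Log2 difference (KO minus control, of log2(FPKM + 1)) of the 9 tested members with all 6 libraries, without control 2 and 3, and without KO 1 and 3; bars are SE of the limma fit. Jun, Fosl1, Fosl2, Mafk, Maff and Fos are below 0 in all 3 settings, Junb and Maf change sign in 1, and Fos moves from -0.52 to -3.01.

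The order of the members by mean level was led in both groups by Junb, and every Junb value lay above every value of the member next to it. In the controls Fos (36.6 FPKM) and Jun (26.7) followed and overlapped each other, then Mafk (18.6), below every Jun value, and then Fosl2, Maff, Fosl1, Maf, Jund and Fosb, each of which overlapped its neighbour. In the KO cells Jun (16.6), Mafk (12.96), Fos (11.7), Maf (7.04) and Maff (6.20) followed Junb, each overlapping its neighbour. Every Maff value lay above every Jund value (mean 2.47), Jund, Fosl1 (1.80) and Fosl2 (1.78) overlapped in that order, and every Fosl2 value lay above every Fosb value. Fosl2 thus held rank 5 in the controls and rank 9 in the KO cells.

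Over the 7 Fos and Jun genes, summed levels were 170, 209 and 148 FPKM in controls 1 to 3 against 133, 167 and 117 in KO 1 to 3. Junb made up 70.5%, 49.8% and 39.8% of that sum in controls 1 to 3 against 72.9%, 85.1% and 62.4% in KO 1 to 3. The 4 Fos family genes made up 13.7%, 38.1% and 37.9% in the controls and 12.3%, 4.81% and 19.9% in KO 1 to 3. Control 1 was closer to the KO libraries than to control 2 and 3 in both shares, and the groups overlapped. Within the Fos family, Fos itself held 59.6% to 72.4% of the sum in the controls and 76.1%, 37.8% and 83.97% in KO 1 to 3. These shares are descriptions of the libraries and were not tested.

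**Figure D4:**
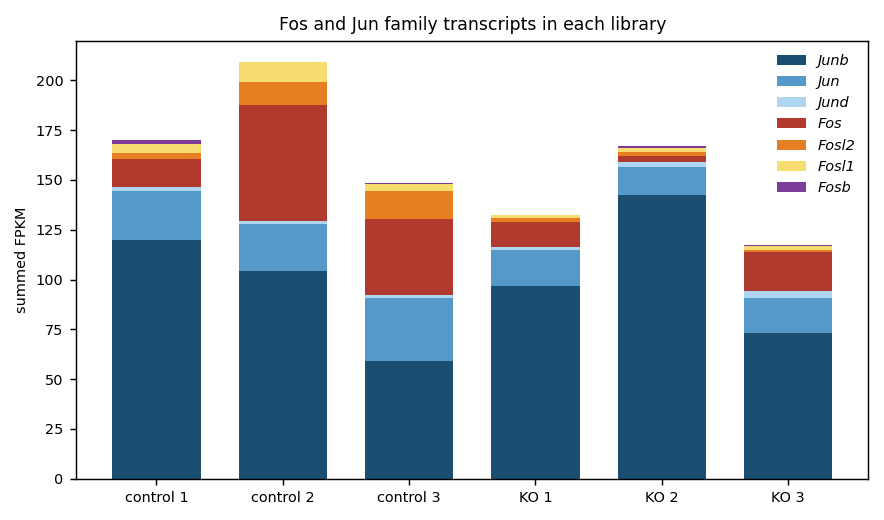
Summed FPKM of the 7 Fos and Jun family genes in each library as stacked bars from 0, coloured by gene. Junb is the largest part of every bar, and Fos and Fosl2 are largest in control 2 and 3.

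Several members overlap another annotated gene on the opposite strand. The strand setting of the counting is not given in the sources used here, so reads from a shared stretch cannot be told apart. The overlaps are those of whole gene spans, and whether exons are shared was not examined. Fosl1 overlaps Ccdc85b, which measured 54.9, 38.0 and 29.5 FPKM in controls 1 to 3 and 74.9, 55.2 and 115 in KO 1 to 3, the direction opposite to that of Fosl1. Jun overlaps the antisense gene Junos, at 0.574, 1.60 and 3.54 FPKM in the controls and 0.298 to 1.05 in the KO libraries, well below Jun. Junb overlaps Prdx2, at 19.3 to 39.7 FPKM in the controls and 17.2 to 32.9 in the KO libraries. Mafk overlaps Tmem184a, at or under 0.126 FPKM in every library. Jund and Maf overlap the antisense genes Gm11175 and Gm15655, for which no values were given. What these overlaps did to the Jund and Maf values was not tested.

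Over 6 libraries, protein-coding genes were ranked by the root mean square difference from a member's centred log2(FPKM + 1) profile. For Jun the closest included Sel1l (0.07) and Cep85 (0.08), and 519 of 10824 genes were within 0.25. For Junb the closest were Gtf3c5, Ruvbl1 and Trap1 (0.09 to 0.10), with 312 genes within 0.25. For Fos they were Cd300a (0.21), Cd63 (0.22) and Ccr1 (0.22), with 4 genes within 0.25, and Cd300a measured 12.9, 43.9 and 44.6 FPKM in the controls and 10.9, 2.07 and 19.4 in KO 1 to 3. For Maf the closest were Rasa4, Il6ra and Tram2 (0.25 to 0.26), with 0 genes within 0.25. The measure was not scaled, so a member that varied little between libraries can have more genes within 0.25. The counts therefore cannot be compared between members.

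Among genes around the members, known AP-1 targets were the list with the lowest median. Of its 14 tested genes, 12 had lower estimates, 8 were lower in every KO library than in every control, 0 were higher without overlap, and the median log2 difference was -1.48, beside 0.10 over all tested genes, of which 9.44% were lower and 6.7% higher without overlap. Vim, which encodes the filament vimentin, measured 179 ± 12.6 and 80.5 ± 14.0 FPKM, and Ccl3, a chemokine of activated T and myeloid cells, 178 ± 103 and 27.5 ± 9.98 (SD, n = 3 each). 0 of the 14 passed with a limma adjusted p below 0.05, and 9 had a lower estimate at an unadjusted p under 0.05, as did 6.46% of all genes. The list was chosen with earlier results of these libraries known and holds genes that myeloid cells also express, such as Ccl3, Plaur and Mmp9, so its direction is not independent evidence. Its median was -0.92 with control 2 and 3 left out and -0.96 with KO 1 and 3 left out, and 4 of its genes passed without control 1 and 6 without KO 2, settings in which 2.6% and 13% of all genes passed. Ifng and Il2, cytokines that AP-1 activates with NFAT, were the 2 with higher estimates: Ifng measured 1.70, 0.720 and 0.770 FPKM in the controls and 11.7, 0.473 and 15.4 in KO 1 to 3, and Il2 measured 1.77, 1.92 and 0.407 FPKM in the controls against 14.3, 0.238 and 13.4. KO 1 and KO 3 were thus far above KO 2, which had the lowest value of all 6 libraries for both.

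Of 15 other basic zipper factors tested, which pair with Fos, Jun or small Maf proteins, 11 had lower estimates, 2 were lower without overlap, 0 passed, and the median was -0.70. Over all genes 43.1% had lower estimates and 9.44% were lower without overlap. Nfe2l1, a partner of small Mafs, measured 43.5 ± 8.50 and 20.8 ± 2.51 FPKM (log2 difference -1.02, SE 0.23), with every KO library below every control. Bach1, a repressor that also pairs with small Mafs, measured 25.2 ± 14.2 and 9.10 ± 4.71 FPKM with overlap. The median of this list was -0.17 with control 2 and 3 left out and -1.16 with KO 1 and 3 left out.

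Of 18 MAP kinases of the pathways that induce and phosphorylate AP-1, 13 had lower estimates, 6 were lower and 1 higher without overlap, 0 passed, and the median was -0.39. The shares of all genes were 43.1% with lower estimates, 9.44% lower without overlap and 6.7% higher without overlap. Map2k6, an activator of p38, was the 1 higher gene, at 1.15, 0.541 and 0.367 FPKM in the controls and 8.74, 1.64 and 12.2 in KO 1 to 3. The median was -0.20 with control 2 and 3 left out and -0.25 with KO 1 and 3 left out.

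Of 20 genes listed as immediate early genes outside AP-1, 13 had lower estimates, 3 were lower without overlap (9.44% of all genes), 0 passed, and the median was -0.20. The list also holds Klf2 and Btg1, and rapid induction was not tested for any of its genes. Klf4, a zinc finger factor, measured 6.73 ± 2.64 and 1.80 ± 0.688 FPKM, and Ier3, a stress-induced survival gene, 71.7 ± 60.5 and 13.7 ± 3.23 (SD, n = 3 each). Without control 1, 1 gene of this list passed and without KO 2, 2 did, beside 2.6% and 13% of all genes. Heat shock genes, which cell handling can raise along with Fos and Jun, had a median of 0.21 over 7 tested genes, 3 lower and 4 higher. Of these, 0 were without overlap, beside 9.44% lower and 6.7% higher of all genes, and 0 passed the threshold. The median was -0.04 with control 2 and 3 left out, 0.24 with KO 1 and 3 left out and -0.02 without KO 2. An effect of cell handling was not tested. Dnaja1, a cochaperone of Hsp70, measured 30.3 ± 4.87 and 39.6 ± 4.10 FPKM.

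A list of 10 tested genes around serum response factor held Srf, Elk1, Elk3 and Elk4, and also Creb1, Crem, Crtc2, Crebbp, Mef2a and Mef2d. The latter genes are not all cofactors of serum response factor, so the list does not stand for that factor alone. It had 4 lower and 6 higher estimates, 0 lower and 1 higher without overlap (9.44% and 6.7% of all genes), and 0 passed. The median of the list was 0.16, and -0.26 without control 2 and 3. Elk4, a cofactor of serum response factor, was the higher gene, at 14.1 ± 3.86 and 23.1 ± 6.13 FPKM. The 5 NFAT and IRF partners had 2 lower and 3 higher estimates, 1 lower and 0 higher without overlap, beside the same shares of all genes, 0 passed, and a median of 0.05, which was -0.47 with control 2 and 3 left out and 0.32 with KO 1 and 3 left out. The lower gene was Irf4, which binds with Batf and Jun proteins in T cells, at 17.3, 23.1 and 28.1 FPKM in controls 1 to 3 and 11.99, 16.4 and 4.28 in KO 1 to 3.

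**Figure D5:**
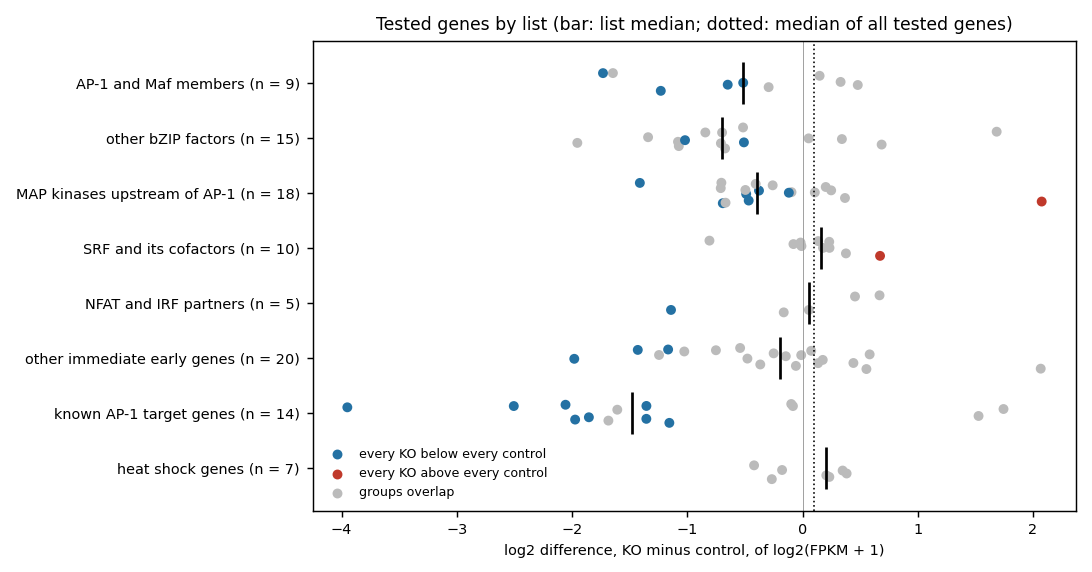
Log2 difference (KO minus control, of log2(FPKM + 1)) of each tested gene by list; blue and red points are genes whose groups do not overlap, bars are list medians and the dotted line is the median of all tested genes, 0.10. The AP-1 target list has the lowest median, -1.48, and the 9 members lie between -1.73 and 0.48.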

How the data were processed

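RNA-seq values of 6 libraries were analysed, 3 of each genotype. Per the submitters' processing notes, the tools were Bowtie2 2.2.3, HTSeq 0.6.0 and HISAT2 2 and the build was mm8, and their roles are not given. The deposited values were taken as FPKM from the values themselves; how the authors made them is not given in the sources used here. Identifiers were matched to symbols and exon lengths of GENCODE M21 (35358 of 35458). Multiplied by exon length, FPKM of a library came out as multiples of what 1 read is worth: 92.1% to 93.4% of values of under 200 implied reads, and 48 of the 60 values of the members, lay within 0.02 of a whole read. Depths and floors of 3 reads (0.200 to 0.998 FPKM for a gene of 1 kb, and lower for longer genes) rest on these steps and cover counting error only.

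Genes that reached 1 FPKM in 3 or more libraries were tested on log2(FPKM + 1) with limma 3.58.1 (R 4.3.3) and a variance trend. Genotype was the single term, and Benjamini-Hochberg adjusted p was held against 0.05. The scale understates changes of low genes. The procedure was also run on simulated reads, with the same mean in all libraries except for genes set to change. The simulation held no mixture of cell types, so it does not show how the test performs on these libraries. The members, the 8 gene lists, the 9 marker lists and the alternatives were chosen with earlier results of these data known. Of the lists, at most 2 genes each were named by smallest p, and others were chosen after their values were seen. Genes alike were the 3 closest to Jun, Fos, Junb and Maf. Some genes that these rules named are not reported here. Of the marker lists, those for T cells, neutrophils, macrophages and erythroid cells are given in the text. Summed FPKM in the controls and KO libraries were 4.01 to 18.4 and 8.05 to 18.9 for dendritic cells, 10.2 to 39.5 and 43.3 to 74.5 for B cells, 2.16 to 17.9 and 7.65 to 11.1 for NK cells, 6.05 to 2206 and 2.62 to 33.8 for erythroid cells, 95.6 to 341 and 62.1 to 793 for platelets, and 29.6 to 36.6 and 13.5 to 42.2 for CD4 and regulatory T cells. Tables and plots used Python 3.11.15, numpy 2.4.6, pandas 2.3.3, scipy 1.17.1 and matplotlib 3.10.9.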

Additional observations from a re-analysis of the deposited data

How the results depend on the processing

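The settings tried were the replicate block, quantile normalization, no filter, a pseudocount of 0.1, each library left out, control 2 and 3 or KO 1 and 3 left out, protein-coding genes only and limma-voom. Of 126 estimates of the 9 tested members under these 14 alternatives, 121 kept their direction and their side of the threshold. Those of Fos, Fosl1, Fosl2, Jun, Mafk and Maff were lower in all 14 and that of Jund higher in all 14. Part of this was fixed in advance. The replicate block, no filter and protein-coding settings cannot change an estimate, only its SE and p. For Fosl1, Fosl2, Jun and Mafk, every KO library lay below every control, so leaving out libraries could not turn the sign. Junb turned to -0.15 without control 3, -0.10 without KO 2 and -0.25 without control 2 and 3, and Maf to -0.67 without KO 1 and 3; the cause was not tested. With single libraries left out, estimates ranged from -0.15 to 0.37 for Junb and from -2.33 to -1.37 for Fosl2, which passed without control 1 (limma adjusted p = 0.0352, and 0.801 at the highest). The count of members past the threshold then ranged from 0 to 1, and that of all genes from 0 to 1821, with 363 without control 1 and 1821 without KO 2. Fits without control 2 and 3 or KO 1 and 3 leave 1 library in a group, assumed to vary like the other group, and 27% and 29.1% of all genes were then lower without overlap, beside 5 of 9 members in each; 2 members, Junb and Jund, were higher without overlap with KO 2 alone, as were 25.1% of all genes. Quantile normalization moved the median of all genes from 0.10 to -0.12; relative to it, Jun stood at -0.68, Mafk at -0.58 and Maff at -0.45. The replicate numbers were not shown to pair libraries (r of deviations across genes 0.11, 0.02 and 0.02 for same-numbered libraries), and with the replicate block 0 genes and 0 members passed. In KO 1 and KO 3, depth limits Fosb, Jund and Fosl1 most, at 6 to 17 reads.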
